A study of Mus musculus with 6 samples.

Results

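The melanocyte antigens described here are 5 genes of pigment cells, Mlana, Tyr, Tyrp1, Dct and Mitf, read in medullary thymic epithelial cells (mTECs). They were found by symbol in the deposited FPKM tables, where all 5 were present among 20443 symbols. FPKM counts fragments by the length of the transcript and by the number mapped. The mice were C57BL/6 at an age of 4 weeks, and their mTECs were isolated by cell sorting. The 3 cKO libraries (cKO_262, cKO_263 and cKO_265) were from Jmjd3fl/fl-Foxn1-cre mice, in which Cre acts in thymic epithelium. The 3 Con libraries (Con_253, Con_261 and Con_264) were from Jmjd3fl/fl mice without Cre, so the Cre construct and the loss of Jmjd3 cannot be told apart. Where 3 values of a group follow each other, they are in the order of these library numbers. The title of the series asks whether Jmjd3, a histone H3 demethylase encoded by Kdm6b, is needed for tissue-restricted antigens in mTECs.

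Melanocytes make melanin inside melanosomes, organelles related to lysosomes. The amino acid tyrosine is oxidized there by tyrosinase, and 2 related enzymes act on the products. The transcription factor MITF drives these genes in melanocytes. mTECs transcribe many genes of peripheral organs at low level and show the products to thymocytes, and proteins of melanocytes are among the self-antigens known from vitiligo and melanoma.

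The genes are all protein coding and lie on different chromosomes. In the tables' coordinates (mm10), Mlana, whose product takes part in the maturation of melanosomes, spans chromosome 19 from 29697941 to 29708306. Tyr, which encodes tyrosinase, spans chromosome 7 from 87427405 to 87493411. Tyrp1 encodes a tyrosinase-related protein and spans chromosome 4 from 80834230 to 80851718. Dct encodes dopachrome tautomerase and spans chromosome 14 from 118012790 to 118052246. Mitf spans chromosome 6 from 97807058 to 98021358. In GENCODE M21, Mlana, Tyr and Tyrp1 overlap no other gene, Dct overlaps 1 antisense gene and Mitf overlaps 1 processed pseudogene on the other strand. Whether reads were counted by strand was not given in the sources used here.

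The M-box, the site through which MITF is known to act on pigment genes, was looked for in promoters from RefSeq (GRCm38.p6, 250 bases before to 50 after a gene's start). Promoters were found for 4 of the 5 genes, Tyr, Tyrp1, Dct and Mitf. The letters TCATGTG, searched on both strands, occurred in the promoters of the 3 melanin enzymes. They did not occur in these windows of the 3 Mitf promoters. The stretches around the matches are shown because they set the enzymes side by side, 5′ to 3′ on the strand of the gene, with the match in capitals:
Tyr, chr7:87493508-87493554, minus strand: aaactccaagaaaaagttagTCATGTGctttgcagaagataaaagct
Tyrp1, chr4:80834146-80834192, plus strand: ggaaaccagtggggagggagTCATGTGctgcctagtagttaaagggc
Dct, chr14:118052371-118052417, minus strand: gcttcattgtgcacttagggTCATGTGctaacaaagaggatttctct
Dct, chr14:118052452-118052496, minus strand, match on the opposite strand: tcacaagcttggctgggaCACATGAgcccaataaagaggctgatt
The match began 22 bases before the start of Tyr and 47 bases before that of Tyrp1. These are RefSeq starts, which for Tyr and Tyrp1 differ from the starts of the spans given above. In Dct the matches began 151 and 232 bases before the start. TCATGTG was present in 3.78% of the 32817 promoters of this length. The stretches with the match on the gene's own strand shared a run of 10 letters, GTCATGTGCT, which was read off these sequences and was present in 61 of the 32817 promoters. A match of letters describes the sequence and does not show binding.

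Counts were not among the values used, so sequencing depth is unknown. The summed FPKM of a library was 583466 to 641685 in cKO and 461791 to 543802 in Con. cKO_265 stood apart on the first principal component of the tested genes (53.02, against -22.7 to 7.42 for the other libraries), which held 42.8% of the variance. Con_253 alone had Y-linked transcripts (Eif2s3y at 7.88 FPKM, against at most 0.041 FPKM elsewhere), so the groups were not matched for sex. For the 5 genes, differences are therefore also given without both of these libraries. Kdm6b averaged 10.5 ± 1.58 FPKM in cKO and 15.05 ± 4.40 FPKM in Con (SD, n = 3 each). Its groups overlapped, and the test did not call it (limma adjusted p = 0.418). The value covers the whole gene, and the labels do not give the deleted part, so it does not check the labels. The mTEC regulator Aire was at 317 to 504 FPKM in cKO and 230 to 399 FPKM in Con, and Fezf2 at 193 to 235 FPKM in cKO and 187 to 240 FPKM in Con, so both were present in all 6 libraries.

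All 5 genes were low in mTECs. Tyr had the highest mean over the 6 libraries, at 3.24 FPKM, a level above that of 48.2% of all symbols. Dct followed at 2.02 FPKM, Mlana at 1.40 FPKM and Mitf at 1.06 FPKM. Tyrp1 was lowest at 0.218 FPKM, above 15.5% of symbols. Tyrp1 thus lay under the mean of 0.5 FPKM that a gene needed to enter the test, and the other 4 genes lay over it. Mlana passed that filter only through the cKO libraries, since its mean in Con was 0.22 FPKM.

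The 5 genes were chosen by name with FPKM values of the comparison between cKO and Con known, among them the difference in Mlana. Their differences are therefore given as descriptions with no test. A difference is cKO minus Con in mean log2(FPKM + 1), and its standard error (SE) is that of a limma fit across all genes. The added 1 understates the difference of low genes.

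Mlana was at 2.34, 2.10 and 3.30 FPKM in the cKO libraries. In Con_253 and Con_264 it was at 0.409 and 0.251 FPKM, and it was listed at 0 in Con_261. Every cKO library lay above every Con library. The means were 2.58 ± 0.634 FPKM in cKO and 0.22 ± 0.206 FPKM in Con (SD, n = 3 each), and the difference was 1.55 (SE 0.21). This difference was the 12th highest among the 15720 tested genes, a rank that only describes a gene chosen with its difference known. Mlana was among the tested genes only through its cKO libraries. Without both cKO_265 and Con_253, the libraries that stood apart, it was 1.52. Mlana was the only one of the 5 genes whose groups did not overlap. Among all tested genes, 9.59% had every cKO library above every Con library.

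**Figure D1:**
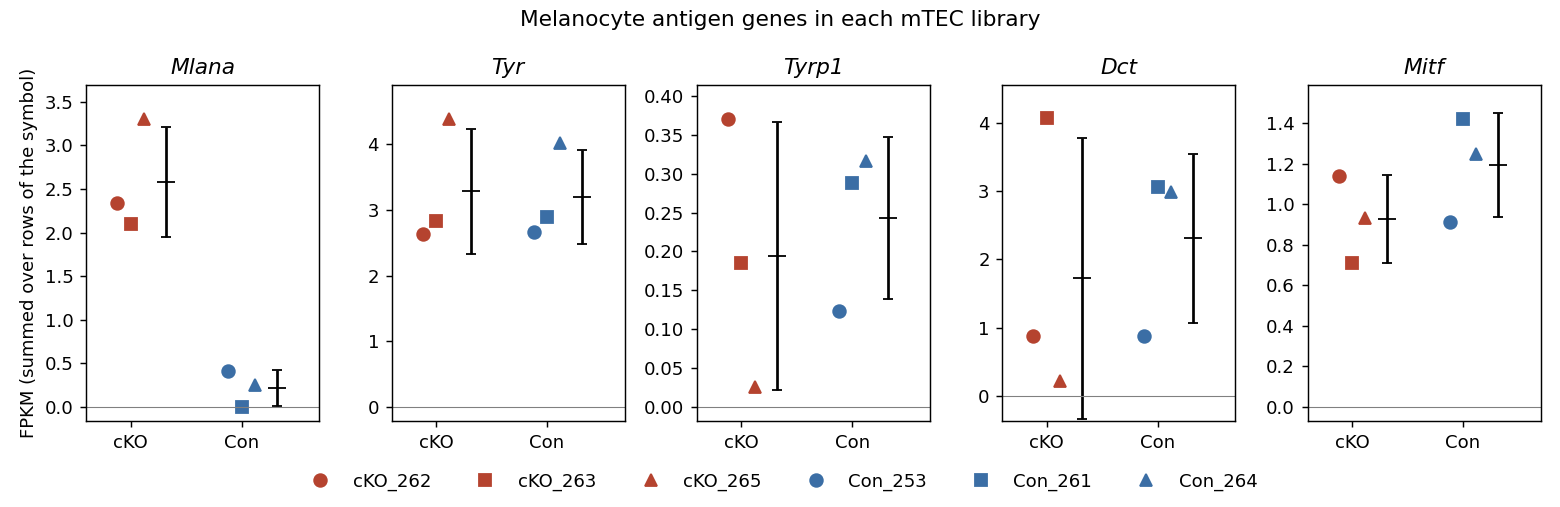
FPKM of the 5 melanocyte antigen genes in each library (points, cKO left and Con right, marker shape by library) with the mean and SD of each group (bars, n = 3). The axes differ in scale. The cKO points of Mlana all lie above its Con points, while the groups of the other 4 genes overlap.

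Tyr, the enzyme of the first step of melanin synthesis, had the smallest ratio between its highest and lowest library of the 4 genes above 0 in every library. It was at 2.63, 2.84 and 4.38 FPKM in the cKO libraries. It was at 2.67, 2.90 and 4.01 FPKM in the Con libraries. The ratio was 1.67, with cKO_265 and Con_264 above the other 4 libraries, and the groups covered nearly the same range. The means were 3.28 ± 0.956 FPKM in cKO and 3.19 ± 0.719 FPKM in Con (SD, n = 3 each). The difference was 0.02 (SE 0.22), and its sign turned without both cKO_265 and Con_253 (-0.25) and with each library scaled to the same FPKM total (-0.21).

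Dct, which acts after tyrosinase, varied most among the 4 genes with a value above 0 in every library. It was at 0.875, 4.06 and 0.229 FPKM in the cKO libraries. It was at 0.879, 3.05 and 2.99 FPKM in the Con libraries. The highest value was 17.7 times the lowest, both were in cKO, and each group held at least 1 library under 1 FPKM and 1 over it. The means were 1.72 ± 2.05 FPKM in cKO and 2.31 ± 1.24 FPKM in Con (SD, n = 3 each). The difference of -0.46 (SE 0.51) was smaller than its SE. It moved with single libraries, to -0.02 without cKO_265, -0.83 without Con_253 and -1.04 without cKO_263. Without both cKO_265 and Con_253 it was -0.38.

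Tyrp1, the other tyrosinase relative, whose row had the deposited status NOTEST (not tested), was near the bottom of the scale. It was at 0.37, 0.186 and 0.025 FPKM in the cKO libraries. It was at 0.123, 0.289 and 0.317 FPKM in the Con libraries. The highest and the lowest value were both in cKO, and the groups overlapped. The means were 0.194 ± 0.173 FPKM in cKO and 0.243 ± 0.105 FPKM in Con (SD, n = 3 each). Its difference, from a fit of all genes without the filter, was -0.07 (SE 0.12), and its sign turned under quantile normalization (0.02), under median centring (0.02) and without cKO_265 (0.04). Without both cKO_265 and Con_253 it was -0.03.

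Mitf, the regulator, was at 1.14, 0.71 and 0.932 FPKM in the cKO libraries when its rows were summed. It was at 0.913, 1.42 and 1.25 FPKM in the Con libraries. The groups overlapped, with the 2 highest values in Con. The means were 0.928 ± 0.216 FPKM in cKO and 1.19 ± 0.257 FPKM in Con (SD, n = 3 each), and the difference was -0.19 (SE 0.18). Without both cKO_265 and Con_253 it was -0.28.

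The order of the genes by level differed between the groups. In cKO the order of the means was Tyr, Mlana, Dct, Mitf and Tyrp1, and the ranges of Tyr, Mlana and Dct overlapped. Mitf lay below Mlana in every cKO library and above Tyrp1 in every cKO library. In Con the order was Tyr, Dct, Mitf, Tyrp1 and Mlana. Tyr and Dct overlapped there, as did Dct and Mitf, and so did Tyrp1 and Mlana, while Mitf lay above Tyrp1 and Mlana in every Con library. Mlana made up 31.8%, 21.2% and 37.2% of the summed FPKM of the 5 genes in cKO_262, cKO_263 and cKO_265. It made up 8.19% and 2.85% in Con_253 and Con_264 and was listed at 0 in Con_261. In these bulk libraries, more cells with a transcript and more of the transcript per cell cannot be told apart.

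Mitf was the only one of the 5 genes with several rows in the tables, 3 at the same locus. MITF is known to be made from several promoters, one of them used in melanocytes. GENCODE M21 lists 8 Mitf transcripts, 6 of them protein coding, with 6 different starts. The tables carry no transcript identifiers, so a row cannot be assigned to a promoter, and the rows are numbered here in the order of the tables.

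The deposited status of rows 1 and 2 was NOTEST (not tested), and that of row 3 was OK. Row 1 held most of the Mitf signal in 2 Con libraries and almost none in cKO. It was listed at 0 in cKO_262 and cKO_265 and was at 0.000394 FPKM in cKO_263. In Con_253, Con_261 and Con_264 it was at 0.858, 0.424 and 0.90 FPKM, which was 93.9%, 29.9% and 72.3% of the gene's FPKM. The groups of this row did not overlap, whereas those of the summed gene did. Of 6597 rows of tested symbols with several rows, 7.85% had every cKO library below every Con library.

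Row 3 was at 1.14, 0.298 and 0.932 FPKM in the cKO libraries. In Con_253 it was listed at 0, and in Con_261 and Con_264 it was at 0.348 and 0.259 FPKM. It made up over 99% of the gene in cKO_262 and cKO_265, and the groups overlapped through cKO_263. Row 2 was at 0.000116, 0.412 and 0.000132 FPKM in the cKO libraries. In Con_253, Con_261 and Con_264 it was at 0.055, 0.648 and 0.087 FPKM, so that it was highest in 1 library of each group. With the row of the highest mean (row 3) in place of the sum, the difference of Mitf was 0.55 rather than -0.19. The rows share exons, and how the authors' software divided reads between them was not given in the sources used here.

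**Figure D2:**
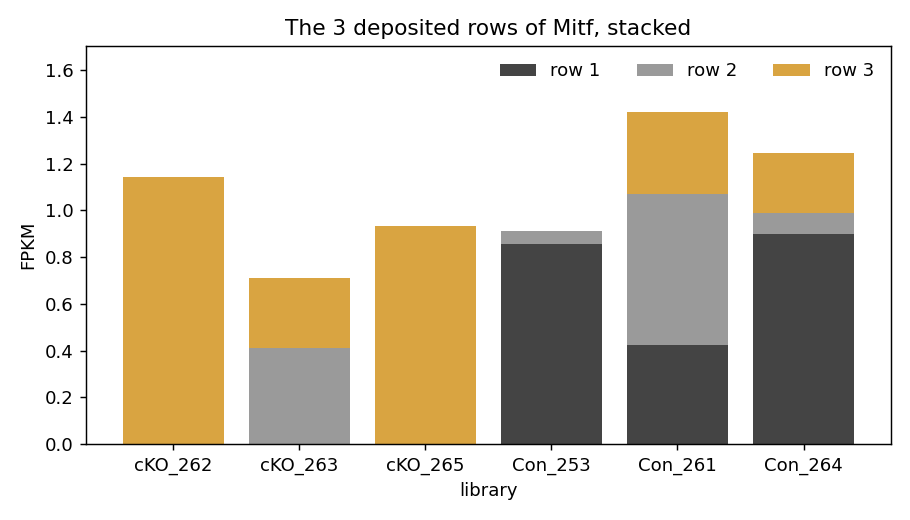
FPKM of the 3 deposited rows of Mitf, stacked for each library (cKO left, Con right). Row 1 is present in the 3 Con libraries and is not visible in the cKO libraries, where rows 2 and 3 make up the bars.

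The test across all genes gives the background for the rest of the pathway. It called 12 of 15720 genes changed (limma, Benjamini-Hochberg adjusted p under 0.05), which is 0.0763%, with 3 higher and 9 lower in cKO. The median difference of all tested genes was -0.04.

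**Figure D3:**
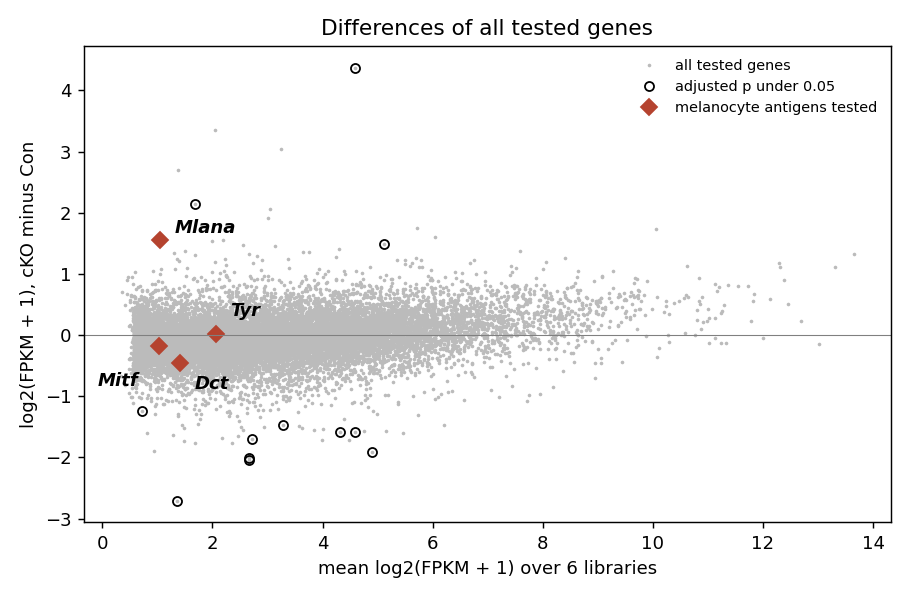
Difference between cKO and Con against mean level for all 15720 tested genes (grey points, log2 scale on both axes), with the 12 called genes circled and the 4 tested melanocyte antigens as diamonds. Mlana lies at 1.55, and Tyr, Mitf and Dct lie at 0.02, -0.19 and -0.46.

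Other genes of pigment cells were read from 4 lists that do not hold the 5 antigens. All 63 listed genes were found, and 58 passed the filter. None of the 58 passed the test (limma, adjusted over all genes), and at an unadjusted p under 0.05 there were 4 higher (6.90%) and 7 lower (12.1%), against 6.81% and 7.82% of all tested genes. The groups did not overlap in 6 genes that were higher (10.3%) and 10 that were lower (17.2%), against 9.59% and 11.9% of all tested genes. Over the 4 lists, the shares higher were near those of all genes, and whether the shares lower differ from them was not tested. The 4 genes higher at an unadjusted p were all in the list of melanosome biogenesis and transport. The lowest adjusted p was 0.148. The median difference was -0.05 over the lists, with 27 genes higher and 31 lower in value, against 7123 and 8597 of all tested genes. With limma's arrayWeights, which weight libraries by their agreement, 13 of the 58 genes passed (4 higher, 9 lower), beside 3025 of all tested genes.

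Genes of melanosome structure and melanin chemistry had 0 of 12 tested members called. Pmel encodes the protein that forms the fibrils on which melanin is laid down, and its product works with that of Mlana. It was at 5.30, 4.45 and 2.64 FPKM in the cKO libraries and at 4.15, 4.86 and 3.15 FPKM in the Con libraries. The groups overlapped, and the difference was -0.0021 (SE 0.24, limma adjusted p = 0.997). It was above 0 under quantile normalization (0.10) and median centring (0.079). Gpnmb, a relative of Pmel, averaged 3.35 ± 0.508 FPKM in cKO and 5.45 ± 0.794 FPKM in Con (SD, n = 3 each). Its difference was -0.57 (SE 0.18, limma adjusted p = 0.22), with every cKO library below every Con library. The cation exchanger gene Slc24a4 (-0.51), the melastatin channel gene Trpm1 (-0.42) and the glutathione transferase gene Gstp1 (0.31) had limma adjusted p of 0.283, 0.357 and 0.444. The value of Gstp1 is uncertain, because it has a near-identical neighbour gene.

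Genes of melanosome biogenesis and transport, most of which also serve lysosomes in other cells, had 0 of 26 tested members called. At an unadjusted p under 0.05 (limma), 4 were higher (15.4%) and 3 were lower (11.5%), against 6.81% and 7.82% of all tested genes. Bloc1s5, a subunit of the BLOC-1 sorting complex, was at 31.5, 38.3 and 41.5 FPKM in the cKO libraries and at 22.2, 23.9 and 24.95 FPKM in the Con libraries. The groups did not overlap, and the difference was 0.62 (SE 0.15, limma adjusted p = 0.148). Rab7, a small GTPase of late endosomes, differed by -0.83 (SE 0.24, limma adjusted p = 0.192). The tetraspanin gene Cd63, whose product takes part in sorting PMEL, differed by 0.47 (SE 0.14, limma adjusted p = 0.198). Hps5, a subunit of the BLOC-2 complex, differed by -0.52 (SE 0.16, limma adjusted p = 0.2). In each of these genes the libraries of the groups did not overlap, and the adjusted p missed the threshold. They were named as the 4 genes of smallest p in the list, a choice that favours groups that do not overlap. In the whole list the groups did not overlap in 5 genes that were higher (19.2%) and 5 that were lower (19.2%). Among all tested genes these shares were 9.59% and 11.9%, and whether the list differs from them was not tested.

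Regulators and signalling genes of melanocytes had 0 of 17 tested members called. Sox10, the neural crest factor that activates Mitf in melanocytes, was at 2.81, 0.684 and 0.119 FPKM in the cKO libraries and at 0.954, 1.31 and 0.564 FPKM in the Con libraries. The cKO libraries covered a wider range than the Con libraries, and the difference was 0.01 (SE 0.40, limma adjusted p = 0.996). Kit, the receptor that melanocyte precursors need, averaged 9.90 ± 1.37 FPKM in cKO and 13.2 ± 1.39 FPKM in Con (SD, n = 3 each), with a difference of -0.38 (SE 0.16, limma adjusted p = 0.332). Snai2, a zinc finger factor of the neural crest, differed by -0.73 (SE 0.24, limma adjusted p = 0.227). The survival gene Bcl2 (-0.42) and the melanocortin receptor gene Mc1r (-0.47) had limma adjusted p of 0.347 and 0.407.

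The MiT relatives of Mitf are Tfe3, Tfeb and Tfec, of which Tfe3 and Tfeb are known to regulate lysosomal genes in many cells. Of these relatives, 0 of 3 were called. Tfe3 was the most abundant of the family, at 27.2 ± 5.27 FPKM in cKO and 24.3 ± 1.49 FPKM in Con (SD, n = 3 each). Tfeb averaged 7.45 ± 3.41 FPKM in cKO and 11.5 ± 1.99 FPKM in Con, with a difference of -0.64 (SE 0.32, limma adjusted p = 0.393). Tfec averaged 0.556 ± 0.469 FPKM in cKO and 0.612 ± 0.124 FPKM in Con, below Mitf in mean. The differences of Tfe3 (0.14) and Tfec (-0.09) had limma adjusted p of 0.737 and 0.897, and their signs turned under some scalings.

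**Figure D4:**
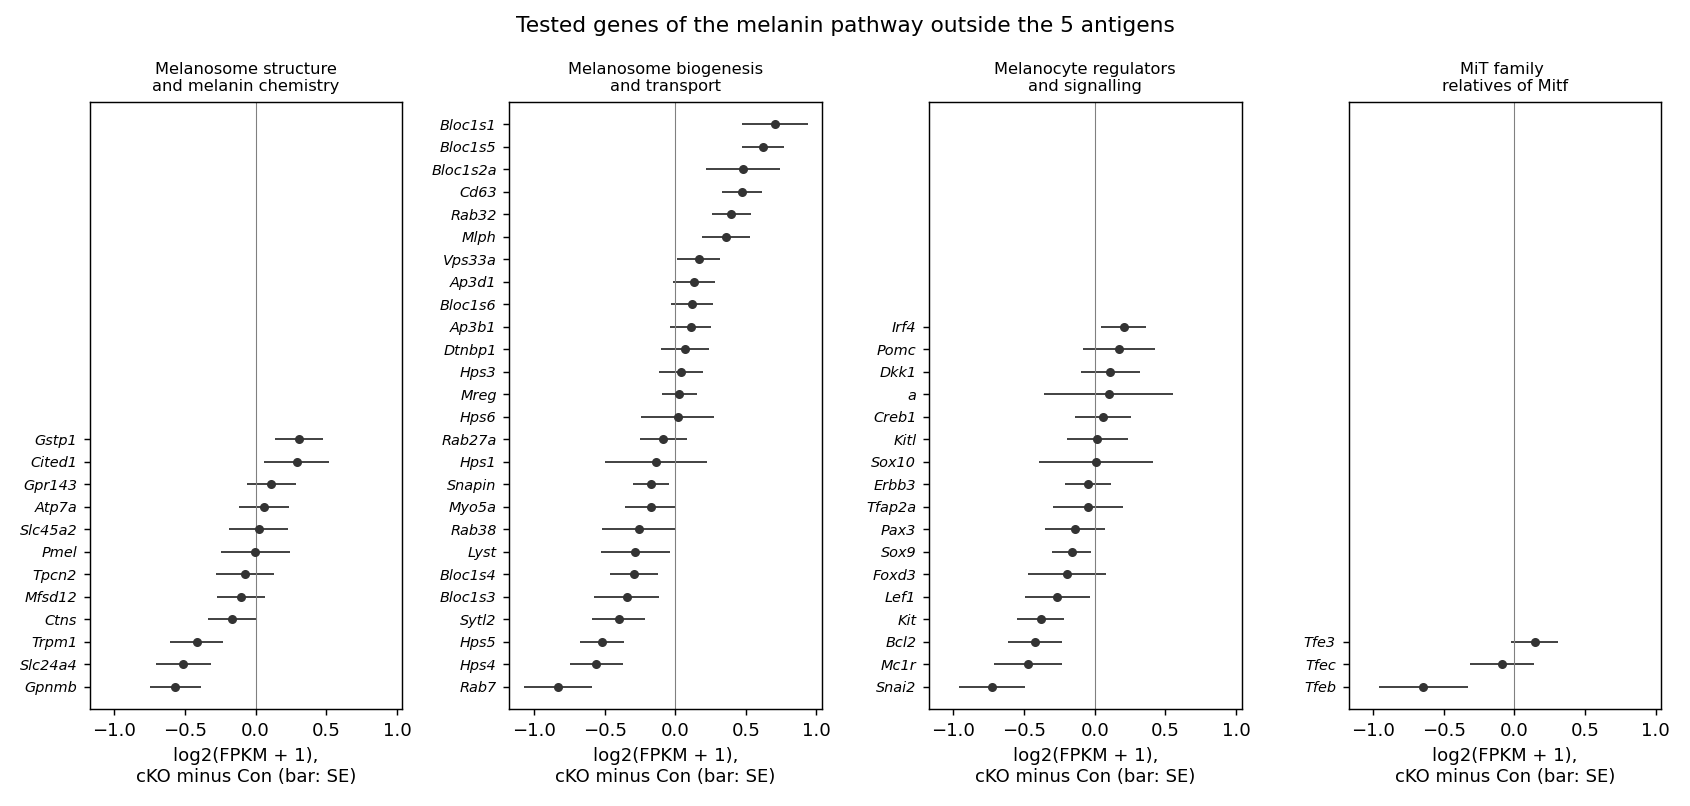
Differences between cKO and Con on the log2(FPKM + 1) scale for the 58 tested pathway genes in 4 lists (points, with the SE of the fit as bars). The points lie on both sides of 0, from -0.83 for Rab7 to 0.71 for Bloc1s1.

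Markers of other cells that a sort could hold were read as well. All 8 melanocyte and neural crest markers are also in the pathway lists above, so their counts repeat values read there. None was at 0 in all libraries, 7 were tested and 0 were called (limma), where 0.0763% of all tested genes were called. At an unadjusted p under 0.05 (limma) only Kit was lower, where 7.82% of all tested genes were lower. The summed level of the 8 markers was 18.5 to 25.0 FPKM in cKO and 23.5 to 25.7 FPKM in Con, and the groups overlapped. Kit, which is also on the mast cell list, made up the largest part of this sum, and without Kit the groups overlapped as well. The part of such cells in the level of Mlana was not tested. The 9 thymocyte markers summed to 29.6 to 36.7 FPKM in cKO and 41.4 to 67.5 FPKM in Con. The 8 macrophage and dendritic cell markers summed to 292 to 319 FPKM in cKO and 366 to 420 FPKM in Con, but most of this was the lysozyme gene Lyz2. Without Lyz2, an alternative added after the data were seen, the sum was 44.0 to 50.5 FPKM in cKO and 39.1 to 58.3 FPKM in Con, and the groups overlapped. Of the 7 tested genes of this list, 1 was higher in value in cKO and 6 were lower. The higher one was Aif1, a macrophage gene, at 15.0, 16.1 and 10.1 FPKM in the cKO libraries. It was at 4.73, 4.28 and 3.85 FPKM in the Con libraries, and every cKO library lay above every Con library. Its difference of 1.46 (SE 0.20) missed the threshold (limma adjusted p = 0.0555). The 8 fibroblast and endothelial markers summed to 24.6 to 28.7 FPKM in cKO and 28.8 to 37.1 FPKM in Con. The thymocyte sum and the fibroblast and endothelial sum were lower in every cKO library than in every Con library, also without the leading gene of each list (Lck and Dcn). The part of these cells in the values of the 5 genes was not tested. The 6 mast cell markers, whose cells are known to use Mitf, summed to 26.8 to 31.7 FPKM in cKO and 27.8 to 38.9 FPKM in Con, and the 6 Schwann cell markers to 43.8 to 53.5 FPKM in cKO and 45.8 to 53.2 FPKM in Con. The groups overlapped in both, but without the leading mast cell marker (Mcpt4) the mast cell sum was 13.9 to 17.3 FPKM in cKO and 19.3 to 21.6 FPKM in Con.

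Likeness between profiles was taken as the root mean square difference of log2(FPKM + 1) values standardized over the 6 libraries, against 14903 tested genes with established symbols. For Mlana the nearest genes were Nup85 (0.094), Exoc4 (0.105) and Alg14 (0.113). All were higher in every cKO library, a trait that choosing by likeness to Mlana favours. For Tyr the nearest genes were Syap1 (0.073), Ccng2 (0.085) and Ccdc132 (0.088). Like Tyr, these were highest in cKO_265 and Con_264, which choosing by likeness to Tyr favours. For Dct they were Kctd18 (0.146), Anks1b (0.151) and Ankrd42 (0.19), and for Mitf they were Manba (0.123), Rsph3a (0.128) and Fam110c (0.182). None of the 4 genes Mlana, Tyr, Dct and Mitf was among the nearest genes of another. With so few genes named out of 14903, this was likely for any 4 genes and says little about them. Tyrp1, which lay under the filter, was not compared.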

How the data were processed

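RNA of sorted mTECs from 3 cKO and 3 Con mice was sequenced after whole-transcriptome amplification of the cDNA, per the labels' protocols. Such amplification can distort the levels of rare transcripts. The authors deposited FPKM, 1 table per library. Bowtie2 2.2.5, Cufflinks and build mm10 are named in the submitters' processing notes, and the unit is taken from these tools because the file headers do not name it. Not given in the sources used here were the Cufflinks version, the annotation and any scaling.

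Each table held 25025 rows. Rows of a symbol were summed after 44 rows whose symbols had become calendar dates were left out, and starts were raised by 1 base. The smallest row values above 0 were 4.95e-07 to 1.72e-06 FPKM, so reads had been assigned in fractions and whole reads could not be recovered. Genes listed at 0 numbered 1632 to 1793 in cKO and 854 to 1813 in Con, and such a 0 may be a failed estimate.

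For the test, 15720 genes averaging at least 0.5 FPKM were fitted as log2(FPKM + 1) with limma 3.58.1 (R 4.3.3, mean-variance trend, 2-sided, Benjamini-Hochberg), and the script was tested on simulated data. Nothing in the labels pairs the libraries or states separate litters, so p-values measure the spread between these samples. The members and lists were chosen with earlier results of these data known. Of the list genes, 2 were matched by an older symbol and Asip as a, its RefSeq symbol.

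Named were the 5 antigens, Pmel, Sox10, Kit, Tfe3, Tfeb, Tfec, Kdm6b, Aire and Fezf2, in each pathway list the called genes and the 4 of smallest unadjusted p, and the 3 nearest profiles of each tested antigen. Bloc1s1, Eif2s3y, Aif1, the leading genes of the marker lists and the rows of Mitf were singled out after their values were seen. Alternatives were a pseudocount of 0.1, other filters, 3 scalings, the highest row, array weights and leaving out libraries. Marker sums without the leading gene of a list were added after the data were seen.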

Additional observations from a re-analysis of the deposited data

How the results depend on the processing

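The number of genes called (12) was 4 without a filter, 233 with each library scaled to the same FPKM total (10 higher, 223 lower) and 3025 with array weights, which ran from 0.263 for cKO_265 to 8.72 for Con_261. It ranged from 2 to 23 when 1 library was left out: 2 without any 1 Con library, 23 without cKO_262 and 19 without cKO_265. That total scaling moved the median difference of all tested genes to -0.27, against -0.04 as deposited. The pathway count (0) was 13 with array weights and 0 under the other 14 alternatives.

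Of 60 values of the 5 antigens under 12 alternatives, 57 moved by less than the spread between replicates. With a pseudocount of 0.1 the difference was 3.33 for Mlana and -0.37 for Tyrp1, and with the highest row it was 0.55 for Mitf. With 1 library left out, Mlana ranged from 1.41 to 1.66, Tyr from -0.16 to 0.16, Tyrp1 from -0.17 to 0.04, Dct from -1.04 to -0.02 and Mitf from -0.28 to -0.10.

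Signs turned in 21 of 294 values of 20 other named genes. None of these 20 genes was called in the test across all genes, so nothing is shown here for called genes. Under quantile normalization Fezf2 was -0.27, Pmel 0.10 and Tfec 0.055. Under median centring Pmel was 0.079. Scaled to the same total, Fezf2 was -0.29, Sox10 -0.11 and Tfe3 -0.14. With array weights Fezf2 was -0.045 and Sox10 -0.24. With a pseudocount of 0.1 Sox10 was -0.33. Without both Con_253 and cKO_265 Pmel was 0.25. With 1 library left out, Fezf2 ranged from -0.11 to 0.10, Sox10 from -0.48 to 0.40, Tfe3 from -0.0031 to 0.25, Pmel from -0.17 to 0.23 and Tfec from -0.32 to 0.066. The cause of these changes was not tested. Depth is unknown, so counting error at these low levels cannot be given. No paired analysis was possible because the groups share no replicate numbers.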

Other observations

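The retinal pigment epithelium also makes melanin and uses Mitf, Tyr and Dct. Of its 8 markers read here, 6 were tested and 0 were called (limma), with 2 lower (Best1 and Rlbp1) and 0 higher at an unadjusted p under 0.05, where 7.82% of all tested genes were lower and 6.81% higher. Rlbp1, the retinaldehyde-binding protein gene, was at 3.97, 3.09 and 2.54 FPKM in the cKO libraries and at 4.78, 4.15 and 5.55 FPKM in the Con libraries, and its groups did not overlap (limma adjusted p = 0.302). Best1, the bestrophin gene, was at 0.857, 1.60 and 0.624 FPKM in cKO and at 2.80, 1.53 and 1.79 FPKM in Con, and its groups overlapped through cKO_263 and Con_261 (limma adjusted p = 0.304). The marker sum was 24.1 to 27.7 FPKM in cKO and 28.4 to 29.98 FPKM in Con. Without Ttr, its leading gene, the sum overlapped between the groups. Rpe65, which lay under the filter and was not tested, was at 0.069, 0.167 and 0.081 FPKM in the cKO libraries. It was at 0.430, 0.275 and 0.235 FPKM in the Con libraries, and its groups did not overlap. Of the 6 tested markers, 4 were lower in value in cKO and 2, Lrat and Rgr, were higher. Lrat, the lecithin retinol acyltransferase gene, was at 3.28, 3.99 and 3.55 FPKM in the cKO libraries. It was at 1.35, 2.62 and 3.26 FPKM in the Con libraries, and its groups did not overlap. The difference was 0.47 (SE 0.24, limma adjusted p = 0.402). Among all tested genes, 11.9% were lower without overlap, as Rlbp1 was, and 9.59% were higher without overlap, as Lrat was. Rgr, an opsin gene, differed by 0.28 (SE 0.22, limma adjusted p = 0.605), and its groups overlapped. Best1, Rlbp1, Rpe65, Lrat and Rgr were singled out after their values were seen.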
